A study of Mus musculus with 14 samples.

Results

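*Ikzf1* (Ikaros) and *Ikzf2* (Helios) were followed through the sorted cells and whole intra-aortic haematopoietic clusters (IAHCs) of the mouse aorta at embryonic day (E)10 and E11. They were taken by gene symbol and are 2 of the 5 Ikaros family genes listed, and were 2 of the 19322 genes measured in E10 single cells and of the 19424 measured in E11 single cells. Expression was measured by CEL-Seq, which reads the 3′ end of each transcript and counts molecules with unique molecular identifiers (UMIs), so a value is a number of transcripts and is not divided by gene length.

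Haematopoietic stem cells (HSCs) first arise in the aorta from haemogenic endothelium (HE), through an endothelial-to-haematopoietic transition (EHT) that ends in clusters of round cells attached to the aortic wall. Ikaros family proteins bind DNA through zinc fingers at their amino-terminal end and pair with each other through further zinc fingers at the other end. They recruit the NuRD chromatin remodelling complex and other co-repressors, and they are best known for their part in lymphocyte development. Ikaros is expressed widely in blood cells and is needed for lymphoid lineages, whereas Helios is known from early progenitors and from T lymphocytes.

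Single cells came from pooled aorta-gonad-mesonephros regions or yolk sacs (YS) of embryos with 28 to 32 somite pairs (E10) or over 40 (E11). Non-HE (Cdh5+ Gfi1- Gfi1b- c-kit-), HE (Cdh5+ Gfi1+ Gfi1b- c-kit-) and EHT cells (Cdh5+ Gfi1+ Gfi1b- c-kit+) were sorted at both stages from ICR embryos of the genotype Gfi+/tomato/ Gfi1b+/GFP, in which reporters stand for the Gfi1 and Gfi1b genes. All others were wild-type C57BL/6: IAHC cells (c-kit+ CD31+ at both stages and, in a second E11 sample, c-kit+), E11 pre-HSCs (c-kit+ Cdh5+, split into type I and type II by CD45 index), YS haematopoietic stem and progenitor cells (HSPCs, c-kit+) and whole IAHCs (wIAHCs, c-kit+), which had been picked mechanically with their ventral or dorsal side recorded. Strain, genotype and sort therefore cannot be told apart from population wherever non-HE, HE or EHT cells are set against IAHC cells, pre-HSCs or YS HSPCs. There were 546 E10 cells of 3000 transcripts each and 575 E11 cells of 5000, with a median of 1811 and 2308 genes detected per cell, and no cell repeated the values of another. Each population at a stage was 1 sample, with both pre-HSC types in the same sample, so no test was run between populations, and 95% intervals cover counting error only. Columns of the E10 non-HE cells carry names that call them early E11, and the label was followed. Other column names give finer ages. E10 HE columns say E10.5, E10 EHT columns E10.5 or late E10, and E11 non-HE columns E11.5 or late E11. E11 HE and EHT columns say late E11. Sets within E10 EHT and E11 non-HE cells therefore also differ in the age named. Summed levels of 10 endothelial markers went from 1.27% of transcripts in E10 non-HE cells to 0.0149% in E10 YS HSPCs, and in E11 cells they were highest in HE cells, at 1.1%, and lowest in YS HSPCs, at 0.0309%. Summed levels of 10 haematopoietic markers went from 0.0093% in E10 and 0.00867% in E11 non-HE cells to 0.398% in E10 IAHC cells and 0.327% in E11 type II pre-HSCs, and all 10 were detected in every population of EHT cells, IAHC cells, pre-HSCs and YS HSPCs.

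On mm10, *Ikzf1* occupies chr11:11685003-11772926 on the plus strand and *Ikzf2* chr1:69531214-69687245 on the minus strand (GENCODE annotation of the same build). RefSeq gives *Ikzf1* 2 promoter windows, and the 250 bases before each start site are shown because these starts differ sharply in sequence. The promoter windows available here held no entry for *Ikzf2*. The first window, chr11:11685675-11685924 (GRCm38.p6, plus strand), ends at the base before an annotated exon and overlaps no exon of the basic annotation. It is printed with CG dinucleotides in capitals. The second, chr11:11689927-11690176, lies in an intron of all 4 annotated basic transcripts, and its capitals mark TTCCC, the reverse complement of the GGGAA core that Ikaros proteins bind.
Ikzf1 window 1: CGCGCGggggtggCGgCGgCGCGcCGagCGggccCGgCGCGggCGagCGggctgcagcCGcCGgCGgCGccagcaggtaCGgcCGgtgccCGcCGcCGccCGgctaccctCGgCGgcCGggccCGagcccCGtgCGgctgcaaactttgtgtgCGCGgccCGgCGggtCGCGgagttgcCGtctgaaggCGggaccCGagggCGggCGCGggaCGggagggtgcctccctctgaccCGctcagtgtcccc
Ikzf1 window 2: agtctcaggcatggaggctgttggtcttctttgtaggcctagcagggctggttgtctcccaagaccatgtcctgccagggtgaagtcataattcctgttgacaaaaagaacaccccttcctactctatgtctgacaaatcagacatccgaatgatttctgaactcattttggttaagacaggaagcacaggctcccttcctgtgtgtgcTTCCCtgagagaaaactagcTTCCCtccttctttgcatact
The first window was 82% GC and held 44 CG dinucleotides, and the second was 47.6% GC and held 1, against a median of 6 over all 32851 mouse windows of this length. GGGAA was absent from both strands of the first window and was found at 2 places on the reverse strand of the second, at -41 and -21 from the start site, a motif that 56.2% of all windows held on either strand. The RUNX motif TGTGGT, searched on both strands as the others were, was in neither window and in 14% of all windows. The ETS motif CCGGAA was likewise in neither, and in 12% of all. The same held for the GATA motif AGATAA, found in 9.99% of all. These matches describe the letters only, and tags from the 3′ end cannot tell which start site was used.

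Over all 1121 cells, 560 *Ikzf2* transcripts were counted in 371 cells and 410 *Ikzf1* transcripts in 314 cells. Of the other family genes, *Ikzf3* (Aiolos), known from maturing lymphocytes, was at 0 in all 1121 cells and *Ikzf4* (Eos) gave 3 transcripts in 3 cells, all at E11. *Ikzf5* (Pegasus) gave 153 transcripts in 143 cells, with means from 0.0698 to 0.168 transcripts per cell at E10 and from 0.0645 to 0.433 at E11, the highest in E11 non-HE cells (13 transcripts in 30 cells). *Ikzf1* and *Ikzf2* were thus the 2 family members with most transcripts.

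*Ikzf1* was close to 0 in endothelium and was present from EHT onwards, at both stages. At E10, its mean was 0.0233 transcripts per cell in non-HE cells (1 transcript in 43 cells), 0.0306 in HE cells (3 in 98; interval 0.00631 to 0.0895), 0.309 in EHT cells (59 in 191; 0.235 to 0.398), 0.466 in IAHC cells (34 in 73; 0.323 to 0.651) and 0.489 in YS HSPCs (69 in 141; 0.381 to 0.619). The interval of HE cells lay wholly below that of EHT cells, while non-HE with HE cells, EHT with IAHC cells, and IAHC cells with YS HSPCs overlapped. At E11, it was 0 in 30 non-HE cells (which allows up to 10% of cells with a transcript), 0.0217 in HE cells (1 transcript in 46), 0.217 in EHT cells (10 in 46; 0.104 to 0.400), 0.371 in type I pre-HSCs (23 in 62; 0.235 to 0.557), 0.494 in c-kit+ IAHC cells (44 in 89; 0.359 to 0.664), 0.498 in c-kit+CD31+ IAHC cells (100 in 201; 0.405 to 0.605), 0.60 in type II pre-HSCs (33 in 55; 0.413 to 0.843) and 0.717 in YS HSPCs (33 in 46; 0.494 to 1.01). In this order of the E11 levels, the intervals of all neighbours overlapped, although that of c-kit+CD31+ IAHC cells began above the upper bound of EHT cells (0.405 against 0.400).

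*Ikzf2* was already detected in HE cells and had its highest mean in EHT cells at both stages, apart from the rest at E10. At E11 the EHT interval overlapped those of both pre-HSC types and of c-kit+ IAHC cells. At E10, its mean was 0.116 transcripts per cell in non-HE cells (5 transcripts in 43 cells), 0.306 in HE cells (30 in 98; 0.207 to 0.437), 0.681 in EHT cells (130 in 191; 0.569 to 0.808), 0.219 in IAHC cells (16 in 73; 0.125 to 0.356) and 0.121 in YS HSPCs (17 in 141; 0.0702 to 0.193). EHT cells stood above every other E10 population with no overlap of intervals, and the next lower neighbours (HE with IAHC cells, IAHC cells with YS HSPCs, YS HSPCs with non-HE cells) overlapped. At E11, it was 0.0667 in non-HE cells (2 in 30), 0.283 in YS HSPCs (13 in 46; 0.150 to 0.483), 0.370 in HE cells (17 in 46; 0.215 to 0.592), 0.618 in c-kit+ IAHC cells (55 in 89; 0.466 to 0.804), 0.622 in c-kit+CD31+ IAHC cells (125 in 201; 0.518 to 0.741), 0.818 in type II pre-HSCs (45 in 55; 0.597 to 1.09), 0.903 in type I pre-HSCs (56 in 62; 0.682 to 1.17) and 1.07 in EHT cells (49 in 46; 0.788 to 1.41). The intervals of all neighbours in this E11 order overlapped, and those of HE and EHT cells did not.

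**Figure D1:**
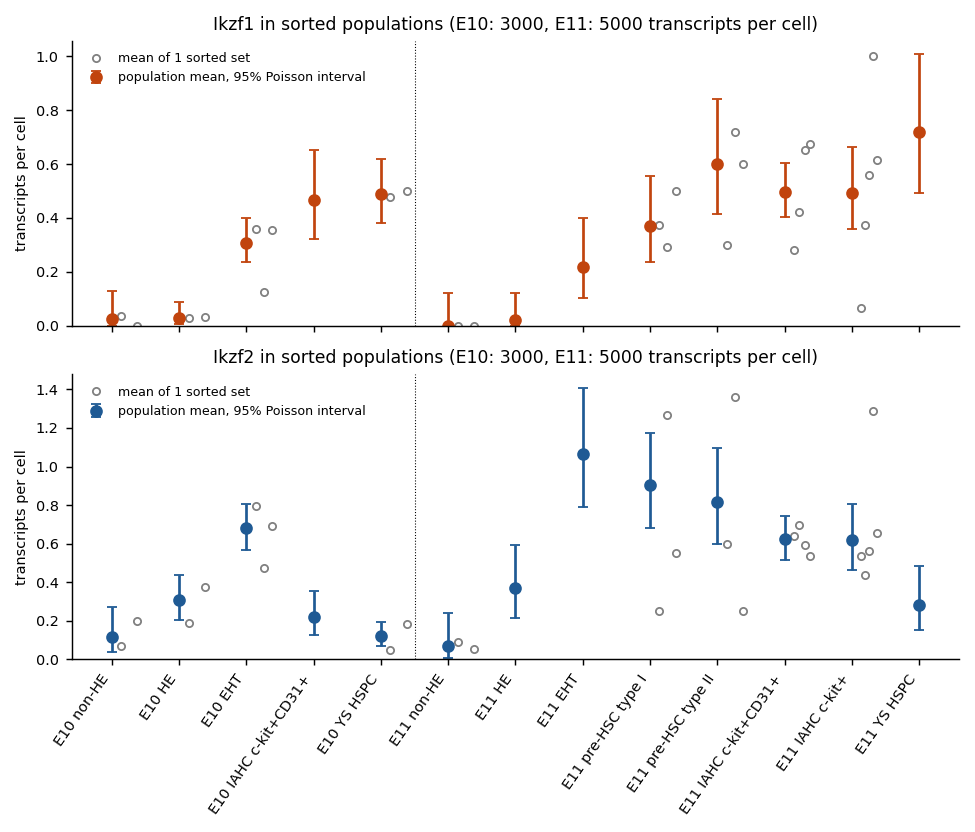
Mean transcripts per cell of *Ikzf1* (top) and *Ikzf2* (bottom) in the 13 sorted populations, with 95% Poisson intervals for counting error. Open circles are the sets, by column name, that make up a population (sorted sets in the key). The dotted line parts E10 (3000 transcripts per cell) from E11 (5000). *Ikzf1* is near 0 in non-HE and HE cells and highest in YS HSPCs. The highest mean of *Ikzf2* is in EHT cells, at 0.681 and 1.07 transcripts per cell, where pre-HSC and c-kit+ IAHC intervals overlap it at E11.

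Among the ratios taken between neighbouring populations, the step from HE to EHT cells had the largest fold of *Ikzf1*. In transcripts per cell at E11, this step was smaller (0.0217 to 0.217) than that from EHT to c-kit+CD31+ IAHC cells (0.217 to 0.498). EHT cells held 10.1-fold more *Ikzf1* per cell than HE cells at E10 (log2 ratio 3.33, interval 1.72 to 5.65) and 10-fold more at E11 (3.32, 0.51 to 8.76), the latter from 10 transcripts against 1. The HE cells held only 3 and 1 *Ikzf1* transcripts, a level not readable as expression, so the size of these folds is not fixed. *Ikzf2* was 2.22-fold higher in EHT than in HE cells at E10 (1.153, 0.57 to 1.78) and 2.88-fold higher at E11 (1.53, 0.71 to 2.42). With 0.5 transcripts added to each sum, all 4 of these ratios exceeded 2-fold, as did 10.7% of the 8999 genes compared in the higher direction at E10 and 11.2% of 7255 genes at E11. The E10 *Ikzf2* log2 ratio was 0.85, under 2-fold, without HE set 1 and 1.85 without HE set 2. *Ikzf2* was also 2.63-fold higher in HE than in non-HE cells at E10 (1.4, 0.02 to 3.12) and 5.54-fold higher at E11 (2.47, 0.40 to 5.63), from 5 and 2 transcripts in the non-HE cells. The E10 log2 ratio was 0.61 without non-HE set 1, 2.10 without non-HE set 2 and 0.70 without HE set 2, and the E11 one 1.38 in thinned cells, all above 0 in value. For *Ikzf1*, the 4 transcripts of E10 HE and non-HE cells together gave a log2 ratio of 0.40 with an interval from -3.24 to 6.11, so a difference was not detectable at this depth. Summed haematopoietic markers over the same step went from 0.0609% to 0.276% at E10 and from 0.033% to 0.217% at E11, beside both genes, and their part in these differences was not tested.

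Beyond EHT the 2 genes parted. *Ikzf2* in c-kit+CD31+ IAHC cells was 0.322-fold the EHT level at E10 (log2 ratio -1.63, -2.48 to -0.88) and 0.584-fold at E11 (-0.78, -1.26 to -0.27). *Ikzf1* in IAHC cells was 1.51-fold the EHT level at E10 (0.59, -0.06 to 1.23) and 2.29-fold at E11 (1.19, 0.26 to 2.30). As said, IAHC and EHT cells differed in strain, genotype and sort. From EHT to these IAHC cells, endothelial markers went from 0.283% to 0.179% of transcripts at E10 and from 0.368% to 0.197% at E11. Haematopoietic markers went from 0.276% to 0.398% and from 0.217% to 0.288%, and erythroid ones from 0.00122% to 0.0511% and from 0.0013% to 0.00448%. Macrophage markers went from 0.0124% to 0.0178% at E10 and from 0.0713% to 0.0148% at E11. Their part was not tested. Type I pre-HSCs, the earlier type, which lacks CD45, gave log2 ratios to EHT cells of 0.77 (-0.36 to 2.01) for *Ikzf1* and -0.24 (-0.82 to 0.35) for *Ikzf2*, both with intervals that include 0. Between type II and type I pre-HSCs, sorted from the same sample, the log2 ratio was 0.69 (-0.12 to 1.53) for *Ikzf1* and -0.14 (-0.74 to 0.45) for *Ikzf2*, and these intervals include 0 as well. E11 IAHC cells sorted on c-kit alone had nearly the same means as those sorted on c-kit and CD31, with log2 ratios of -0.01 for *Ikzf1* (-0.56 to 0.52) and -0.01 for *Ikzf2* (-0.49 to 0.46). The purification rule of the paper was applied here to the down-sampled counts. It needs at least 2 *Gpr56* transcripts and at most 2 of each marker of non-IAHC cells. In IAHC cells purified so, the ratios between the sorts were 0.44 and -0.32, so the likeness holds for the cells as deposited. These may already have been purified, as the paper counts 73 E10 IAHC cells after its own purification, the number deposited.

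YS HSPCs, which arise outside the embryo proper and were sorted on c-kit alone, had the highest mean of *Ikzf1* at each stage and a low one of *Ikzf2*. Against c-kit+CD31+ IAHC cells of the same strain, *Ikzf2* had a log2 ratio of -0.86 at E10 (-1.94 to 0.22) and -1.14 at E11 (-2.09 to -0.31), and *Ikzf1* of 0.07 (-0.54 to 0.71) and 0.53 (-0.09 to 1.11). The E10 *Ikzf2* ratio was -0.25 without the first YS set and -2.25 without the second. Summed endothelial markers were 0.0149% of transcripts in YS HSPCs against 0.179% in IAHC cells at E10 and 0.0309% against 0.197% at E11. Erythroid markers were 0.069% against 0.0511% at E10 and 0.108% against 0.00448% at E11, with 5 of 7 detected in both E11 populations. The part of either list in these ratios was not tested. Only E11 *Ikzf2* passed 2-fold, in the lower direction, as 18.2% of 8961 genes did. In the other directions 8.66% of 7394 genes were over 2-fold higher and 13.6% over 2-fold lower at E10, and 6.14% over 2-fold higher at E11.

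From HE cells onwards, the balance of the 2 genes followed a like order at both stages. *Ikzf2* made up 90.9% of the transcripts of both genes in E10 HE cells (Clopper-Pearson interval 75.7% to 98.1%), 68.8% in EHT cells (61.7% to 75.3%), 32.0% in IAHC cells (up to 46.7%) and 19.77% in YS HSPCs (12% to 29.8%). At E11 it made up 94.4% in HE cells (72.7% to 99.9%), 83.1% in EHT cells (71.0% to 91.6%), 70.9% (59.6% to 80.6%) and 57.7% (46% to 68.8%) in pre-HSCs of type I and of type II, 55.6% in IAHC cells of either sort (48.8% to 62.2% for c-kit+CD31+ and 45.2% to 65.5% for c-kit+) and 28.3% in YS HSPCs (16.0% to 43.5%). The intervals of HE cells and YS HSPCs did not overlap at either stage, and these cells differed in strain, genotype, sort and tissue. The share needs no depth correction within a cell, although the 2 genes may be captured with different efficiency. Populations can thus be compared, and the level at which the genes are equal cannot be read. The place of the pre-HSCs in the order rests on set 2. Without it, type I held 13 transcripts of each gene and type II 11 of *Ikzf2* and 15 of *Ikzf1*, both shares below those of IAHC cells. The intervals of type II pre-HSCs and IAHC cells overlapped in any case. In non-HE cells the share was 83.3% of 6 transcripts at E10 and 100% of 2 at E11, too few to place them in the order.

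**Figure D2:**
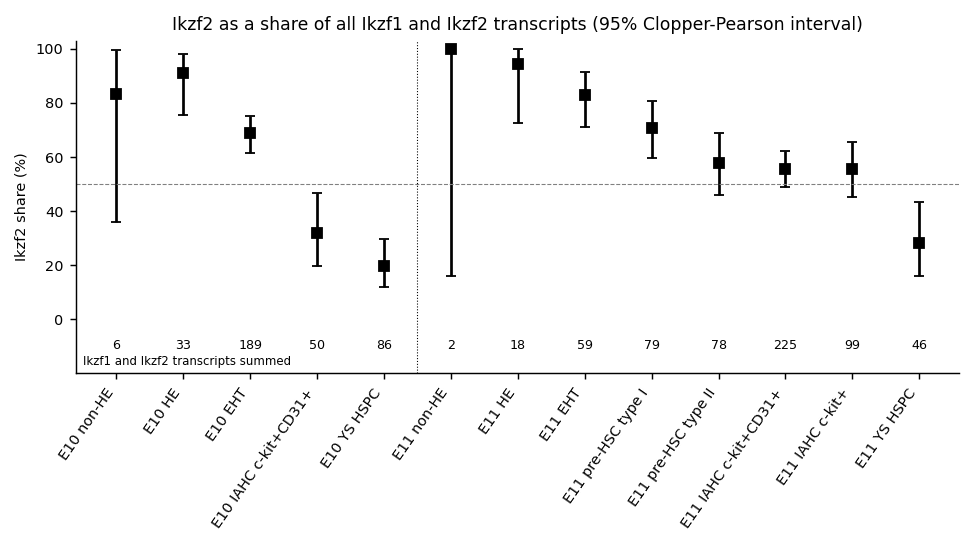
Share of *Ikzf2* among the summed transcripts of *Ikzf1* and *Ikzf2* in each sorted population, in percent, with 95% Clopper-Pearson intervals; the summed number of transcripts stands under each point and the dashed line marks equal numbers. The share goes from 90.9% in HE cells to 19.77% in YS HSPCs at E10 and from 94.4% to 28.3% at E11.

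Between stages, E11 cells were thinned to 3000 transcripts. *Ikzf2* in c-kit+CD31+ IAHC cells was then 0.393 transcripts per cell at E11 against 0.219 at E10, a log2 ratio of 0.84 (0.05 to 1.72) that rests on 16 transcripts at E10. Erythroid markers were 0.00448% of transcripts in these E11 cells against 0.0511% at E10, and mesenchyme markers 0.0173% against 0.00183%. The part of either list was not tested. The *Ikzf2* ratio was -0.16 in EHT cells (-0.81 to 0.44), -0.82 in HE cells (-2.15 to 0.34) and 0.70 in YS HSPCs (-0.65 to 1.94). The last was 0.09 without E10 set 1 and 2.08 without E10 set 2. For *Ikzf1* it was -1.02 in EHT cells (-2.40 to 0.11), -0.57 in IAHC cells (-1.20 to 0.08) and -0.17 in YS HSPCs (-0.97 to 0.56). Thinning was a single random draw. With all E11 transcripts divided by depth in its place (added after seeing the data), the *Ikzf2* ratio in IAHC cells was 0.77 (0.01 to 1.618), and those of *Ikzf1* were -1.24 in EHT cells (-2.38 to -0.26) and -0.64 in IAHC cells (-1.22 to -0.04), with intervals that no longer include 0. In purified IAHC cells the thinned *Ikzf2* ratio was 0.58. These intervals thus lie close to 0 or cross it with the way depth was equalised.

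Within a population, transcripts of both genes were spread thinly over many cells. At E10, *Ikzf1* was detected in 22.5% of EHT cells (43 of 191), 38.4% of IAHC cells and 39.7% of YS HSPCs, and *Ikzf2* in 26.5% of HE cells, 42.9% of EHT cells (82 of 191), 19.18% of IAHC cells and 11.3% of YS HSPCs. At E11, *Ikzf1* was detected in 9 of 46 EHT cells, 30.6% and 45.5% of pre-HSCs (type I and type II), 35.8% and 37.1% of IAHC cells (c-kit+CD31+ and c-kit+) and 52.2% of YS HSPCs, and *Ikzf2* in 26.1% of HE cells, 52.2% of EHT cells, 51.6% and 49.1% of pre-HSCs, 44.3% and 38.2% of IAHC cells and 9 of 46 YS HSPCs. For comparison, *Ikzf1* was seen in 2.33% of the E10 non-HE cells, endothelium in which it would not be looked for, and in 3.06% of HE cells at the same depth, so the HE value cannot be read as expression. The highest count in a cell was 4 for *Ikzf1*, in an E10 EHT cell, and 5 for *Ikzf2*, in cells of E11 EHT, both pre-HSC types and c-kit+ IAHCs.

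Detection of *Ikzf1* was compared, as a description, between cells with and without *Ikzf2*. In E10 EHT cells, 21 cells held both, 22 *Ikzf1* only, 61 *Ikzf2* only and 87 neither, so that *Ikzf1* was detected in 25.6% of cells with *Ikzf2* (16.6% to 36.5%) and in 20.2% of those without (13.1% to 28.9%). In E11 c-kit+CD31+ IAHC cells, 27 held both, 45 *Ikzf1* only, 62 *Ikzf2* only and 67 neither, or 30.3% against 40.2% (21% to 41% and 31.0% to 49.9%), and in the same cells thinned to 3000 transcripts 24.6% against 25%. In E10 IAHC cells the figures were 7, 21, 7 and 38 cells, in E10 YS HSPCs 6, 50, 10 and 75, in E11 EHT cells 4, 5, 20 and 17, in pre-HSCs of type I 8, 11, 24 and 19 and of type II 10, 15, 17 and 13, in c-kit+ IAHC cells 15, 18, 19 and 37, and in E11 YS HSPCs 5, 19, 4 and 18. In these YS HSPCs the share with *Ikzf1* among cells with *Ikzf2* was 55.6% as deposited and 16.7% after thinning (1 of 6 cells). The intervals of the shares with and without *Ikzf2* overlapped in each of these 9 populations, which is no test of the difference. Non-HE and HE cells had too few cells with *Ikzf1* to compare. At 3000 to 5000 transcripts per cell a cell without a transcript may still express the gene, so these counts do not sort cells into expressing types.

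**Figure D3:**
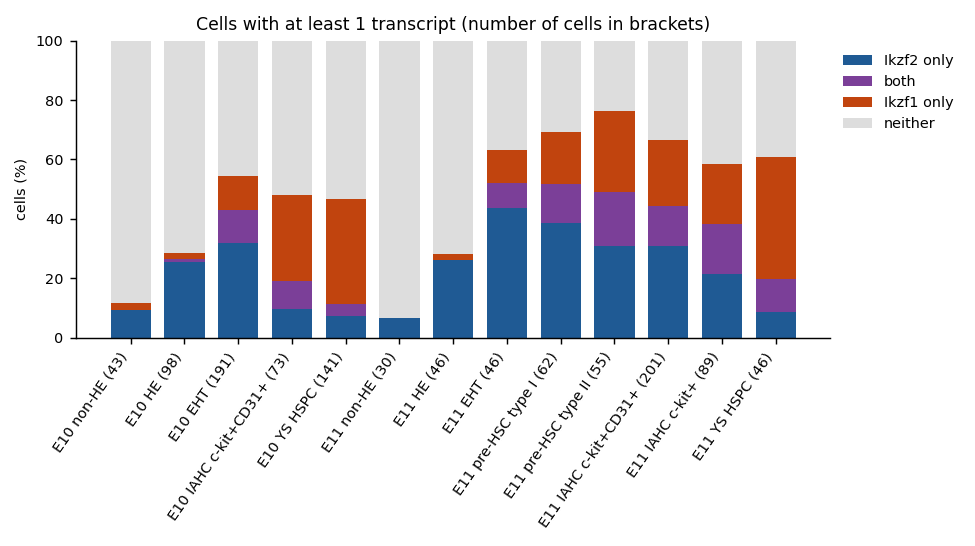
Share of cells, in percent, with at least 1 transcript of *Ikzf2* only, of both genes, of *Ikzf1* only or of neither, in each sorted population; the number of cells stands in brackets. Cells with *Ikzf2* only outnumber those with *Ikzf1* only among HE and EHT cells (61 against 22 in E10 EHT cells), the reverse holds among YS HSPCs (50 against 10 at E10), and in E10 EHT cells most often neither gene is seen (87 of 191).

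Several populations came in more than 1 set by their column names, and sets differed by more than counting error in places. The names do not say what parts the sets, such as separate sorts, plates or libraries. *Ikzf2* in type I pre-HSCs was 0.250 transcripts per cell in set 1 (8 cells), 1.26 in set 2 (34 cells) and 0.550 in set 3 (20 cells), and in those of type II 0.60 (10 cells), 1.36 (25 cells) and 0.250 (20 cells). The second set was thus the highest for *Ikzf2* in both pre-HSC types. Without set 2 of type I pre-HSCs, the log2 ratio to EHT cells became -1.20, whereas it was -0.09 without set 1 and 0.0084 without set 3. Without set 3, type I held 45 *Ikzf2* transcripts in 42 cells and type II 40 in 35, both slightly more per cell than the 49 in 46 EHT cells, so the first place of EHT cells at E11 rests on set 3. Both types carry the same set numbers, and within sets the *Ikzf2* log2 ratio of type II to type I was 1.26 in set 1 (-1.22 to 4.60; 6 transcripts against 2), 0.10 in set 2 (-0.59 to 0.79) and -1.14 in set 3 (-3.01 to 0.50), with no sign in common. For *Ikzf1* it was -0.32 (-3.22 to 2.58), 1.292 (0.10 to 2.57) and 0.26 (-1.07 to 1.63). Without set 2 in both types, the ratios became -0.34 for *Ikzf2* and 0.11 for *Ikzf1*. *Ikzf1* in the same pre-HSC sets was between 0.294 and 0.50 in type I and between 0.300 and 0.720 in type II. *Ikzf1* in c-kit+CD31+ IAHC cells at E11 ranged over 4 sets from 0.280 to 0.674, and *Ikzf2* from 0.535 to 0.695. In c-kit+ IAHC cells, 5 sets of 7 to 26 cells ranged from 0.0667 to 1.00 for *Ikzf1* and from 0.438 to 1.286 for *Ikzf2*. In E10 EHT cells, *Ikzf1* was 0.359, 0.125 and 0.356 and *Ikzf2* 0.797, 0.475 and 0.690 over 3 sets, so that every set stood above both E10 HE sets in either gene (0.0270 and 0.0328 for *Ikzf1*, 0.189 and 0.377 for *Ikzf2*). E10 YS HSPCs held 0.0462 and 0.184 *Ikzf2* transcripts per cell in 2 sets. E11 HE and EHT cells, E10 IAHC cells and E11 YS HSPCs came from a single set each, and there a set cannot be told apart from its population.

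IAHC cells span a range from endothelial to haematopoietic transcripts, and the members were compared in cells with transcripts of *Cdh5* (VE-cadherin, an endothelial adhesion molecule) or *Rac2* (a GTPase of blood cells). In E11 IAHC cells of both sorts, *Ikzf1* was 0.327 transcripts per cell in 107 cells with *Cdh5* only (0.228 to 0.455), 0.611 in 90 cells with both (0.460 to 0.795) and 0.672 in 64 cells with *Rac2* only (0.486 to 0.905). *Ikzf2* was 0.645 (0.502 to 0.816), 0.800 (0.626 to 1.01) and 0.375 (0.240 to 0.558) in the same classes, highest in cells with both and lower in the *Rac2* than in the *Cdh5* class. Cells with *Rac2* only against cells with *Cdh5* only gave a log2 ratio of 1.04 for *Ikzf1* (0.36 to 1.73) and of -0.78 for *Ikzf2* (-1.52 to -0.09). Within c-kit+CD31+ IAHC cells the ratios were 0.97 (0.09 to 1.82) and -0.48 (-1.42 to 0.37), and within c-kit+ IAHC cells 1.27 (-0.01 to 2.75) and -1.23 (-2.58 to 0.02), of the same sign in both sorts for these class genes. The 29 E11 IAHC cells with neither gene had 0.379 *Ikzf1* and 0.517 *Ikzf2* transcripts per cell.

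In the other populations compared, the intervals included 0 with *Cdh5* and *Rac2* as class genes. E10 IAHC cells held 0.387 *Ikzf1* and 0.161 *Ikzf2* transcripts in 31 cells with *Cdh5* only and 0.60 and 0.200 in 15 cells with *Rac2* only, with log2 ratios of 0.63 (-0.79 to 2.00) and 0.31 (-2.38 to 2.67). In E11 pre-HSCs, which were sorted on Cdh5 protein, 58 cells with *Cdh5* transcripts only had 0.483 *Ikzf1* and 0.983 *Ikzf2* transcripts and 21 cells with *Rac2* only 0.714 and 0.571, with ratios of 0.57 (-0.45 to 1.519) and -0.78 (-1.82 to 0.13). With at least 2 transcripts of a class gene required, these pre-HSC ratios were 1.121 (0.11 to 2.09) and -1.10 (-2.22 to -0.14), without 0. With *Pecam1* and *Coro1a* as the class genes, the *Ikzf2* ratio of pre-HSCs was 2.16 (0.21 to 5.25; 46 cells against 10), the opposite sign, and 0.66 (-0.55 to 2.16; 71 cells against 11) with at least 2 transcripts required, so its direction there depends on the genes chosen. In E11 IAHC cells the same genes gave 1.26 for *Ikzf1* (-0.15 to 3.17) and -0.24 for *Ikzf2* (-1.20 to 0.89; 122 cells against 15), with intervals that include 0. Within c-kit+CD31+ IAHC cells they gave 1.765 for *Ikzf2* (-0.78 to 7.10; 83 cells against 6) and, with at least 2 transcripts required, -0.17 (-1.29 to 1.19; 116 cells against 10), so no direction can be read there. In E10 EHT cells, 122 cells with *Cdh5* only held 0.238 *Ikzf1* and 0.697 *Ikzf2* transcripts and 19 with *Rac2* only 0.421 and 0.684, with ratios of 0.82 (-0.52 to 1.99) and -0.03 (-0.99 to 0.82), against 1.573 (0.23 to 3.16) and 1.08 (0.19 to 2.04) with *Pecam1* and *Coro1a*. With at least 2 transcripts of the latter required, they were 1.86 (0.60 to 3.33) and 0.15 (-0.69 to 0.99), so that the interval of *Ikzf2* includes 0 again. E11 EHT cells included 3 with *Rac2* only, too few to compare.

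**Figure D4:**
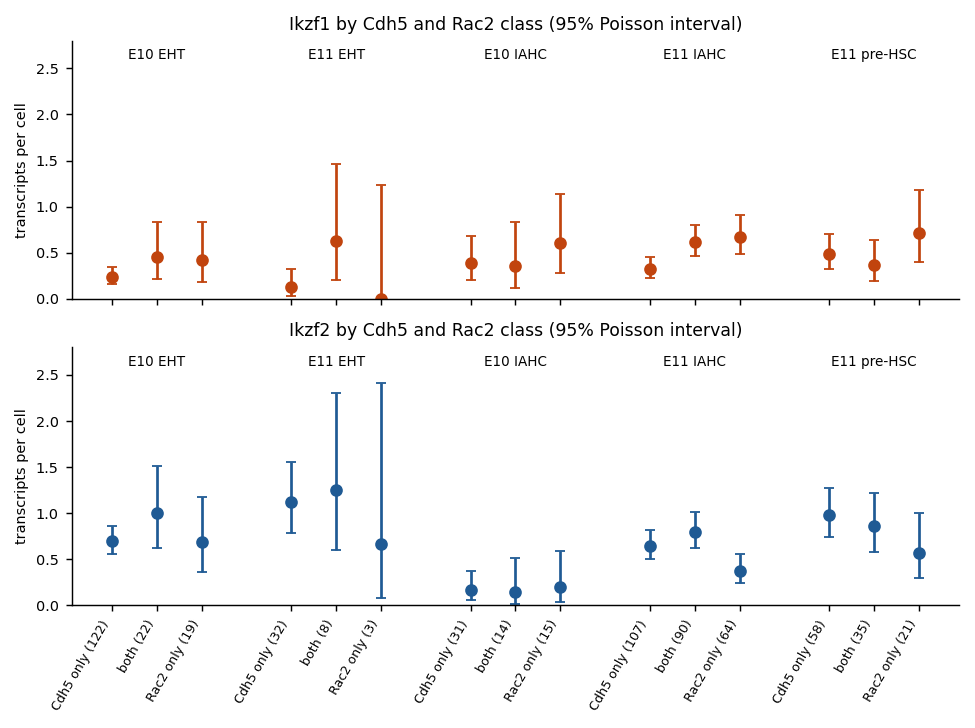
Mean transcripts per cell of *Ikzf1* (top) and *Ikzf2* (bottom) in cells with transcripts of *Cdh5* only, of *Cdh5* and *Rac2*, or of *Rac2* only, with 95% Poisson intervals and the number of cells in brackets. In E11 IAHC cells *Ikzf1* goes from 0.327 to 0.672 and *Ikzf2* from 0.645 to 0.375 between the outer classes, with *Ikzf2* highest (0.800) in the middle one.

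The genes whose means most resembled those of the members were taken over the 13 populations, with E11 cells thinned, by Pearson correlation of log2(mean + 0.1) over the 6038 genes whose mean reached 0.2 transcripts per cell somewhere. The 13 points share depth and the endothelial to haematopoietic order, and the coefficients are descriptions. *Ikzf1* was nearest to *Gpx1*, a glutathione peroxidase (0.985), *Dctpp1*, a nucleotide-pool phosphatase (0.985), *Phgdh*, the entry enzyme of serine synthesis (0.982), *Sash3*, a lymphocyte adapter (0.981), and *Wdfy4*, known from dendritic cells (0.973). *Gpx1* went from 0.900 transcripts per cell in E11 non-HE cells to 9.68 in E10 YS HSPCs, and *Phgdh* was lowest at 0.0217 (E11 HE cells) and highest at 2.16 (E10 YS HSPCs). *Ikzf2* was nearest to *Mycn*, a MYC family factor (0.925), *Gfi1*, a zinc finger repressor whose reporter defined the HE and EHT sorts (0.916), *Fam178a* (0.871), *Uri1*, a prefoldin (0.869), and *Neurl3*, a ubiquitin ligase (0.867). *Mycn* was 0.316 in E10 HE cells, 1.518 in E10 EHT cells, 0.151 in E10 IAHC cells and 0.0638 in E10 YS HSPCs, a peak in EHT cells like that of *Ikzf2*. *Gfi1* was 0.439, 0.874, 0.534 and 0.0213 in the same populations. Between the members themselves the coefficient was 0.353, against 0.215 with 0.5 added in place of 0.1 and 0.162 by Spearman correlation. By Spearman correlation, 1 of the 5 nearest genes of *Ikzf1* and 3 of those of *Ikzf2* were again among the nearest 5.

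Genes of the complexes that Ikaros proteins recruit were broadly present. Of 24 partner genes, 23 were detected in all 13 populations. The list holds NuRD, Sin3, CtBP and CoREST co-repressors, SWI/SNF subunits and *Crbn*, the receptor through which lenalidomide degrades Ikaros in human cells. From HE to EHT cells, 0 of 23 compared were over 2-fold higher and 1 over 2-fold lower at E10, where 10.7% of all genes were over 2-fold higher and 11% over 2-fold lower, with a median log2 ratio of -0.04 against 0.05 over all genes. At E11, 2 were higher (*Mbd2* 1.4, *Smarcd2* 2.05) and 2 lower (*Chd3* -1.27, *Rcor1* -1.25), where 11.2% of all genes were higher and 14.4% lower, with a median of 0.07 against -0.02. In YS HSPCs against IAHC cells, 2 were higher (*Mta3* 1.04, *Mbd2* 1.483) and 2 lower (*Chd3* -2.53, *Crbn* -1.48) at E10, where 8.66% of all genes were higher and 13.6% lower, and 0 higher and 1 lower (*Chd3* -1.71) at E11, where 6.14% were higher and 18.2% lower, with medians of -0.12 and -0.22 against -0.04 and -0.13 over all genes.

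Of the catalytic subunits of NuRD, *Chd4*, the main one, was between 1.00 and 1.41 transcripts per cell in the E10 populations and between 1.124 (c-kit+ IAHC cells) and 2.30 (HE cells) in those of E11, with intervals apart. *Chd3*, its alternative, was 0.581 in non-HE, 0.50 in HE, 0.220 in EHT and 0.178 in IAHC cells and 0.0284 in YS HSPCs at E10, and 0.733, 1.33, 0.543, 0.388 and 0.109 in the same populations at E11. It was over 2-fold lower in all 4 comparisons made, including a log2 ratio of -1.18 from E10 HE to EHT cells, as were 11% to 18.2% of all genes in each of them. The E10 means of *Chd3* thus ran in the reverse order of those of *Ikzf1* from HE cells to YS HSPCs. The intervals of EHT and IAHC cells overlapped for both genes. In E11 pre-HSCs the order was not reversed, as both genes had the higher mean in type II. *Chd3* was 0.258 in type I and 0.364 in type II there, and *Ikzf1* 0.371 and 0.60.

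Lymphoid genes were mostly too sparse to compare. Of 20 genes that Ikaros acts on or that lymphoid progenitors express, 5 were detected in all 13 populations, 3 (*Cd3e*, *Dntt* and *Ebf1*) in none, and 9 had fewer than 10 transcripts in all. Of the 6 compared between E10 EHT and HE cells, *Flt3*, a cytokine receptor of multipotent and lymphoid progenitors (12 transcripts against 0), and *Satb1*, a chromatin organiser (log2 ratio 1.09), were over 2-fold higher, as 10.7% of all genes were, and *Notch1* over 2-fold lower (-1.42), as 11% were. *Flt3* was also the only one of 4 to pass 2-fold at E11 (11 against 0), where 11.2% of all genes were higher. In YS HSPCs against IAHC cells, 0 of 6 passed 2-fold at E10 (8.66% of all genes higher, 13.6% lower), and *Satb1* (1.391) and *Cd52* (2.83) were higher of 7 at E11 (6.14% higher, 18.2% lower). The medians of the genes compared were 0.89 and 0.73 from HE to EHT cells (0.05 and -0.02 over all genes). In YS HSPCs against IAHC cells they were -0.25 and -0.11 (-0.04 and -0.13 over all genes). At both stages *Flt3* and *Satb1* reached the 10 transcripts needed through EHT cells. The medians from HE to EHT cells, over 6 and 4 genes, thus cannot be read as a rise of the list.

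wIAHCs carry the RNA of all their cells together, so that fewer cells of a type and less RNA per cell cannot be told apart in them. Of 109 wIAHCs, the 57 with at least 5000 transcripts were used (5099 to 115328, median 12838), of which 21 were ventral and 7 dorsal at E10, and 17 ventral and 12 dorsal at E11. In them 344 *Ikzf2* and 177 *Ikzf1* transcripts were counted, *Ikzf2* in 47 libraries, *Ikzf1* in 42 and both in 37. *Ikzf2* gave more transcripts in 35 wIAHCs, *Ikzf1* in 13 and the 2 were equal in 9, libraries with neither gene among them. *Ikzf2* made up 66.1% of the transcripts of both. As the genes may be captured with different efficiency, these values do not rank their expression. *Ikzf3* and *Ikzf4* were at 0 in all 57. In the shallowest library, 3 transcripts amount to 588 CPM (transcripts scaled to a common library total), and in the deepest to 26.0, so a wIAHC at 0 may still express the gene.

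*Ikzf1* was at 0 in 9 of 21 E10 ventral wIAHCs (median 96.9 CPM, highest 352), and in E10 dorsal wIAHCs it went from 121 through a median of 287 to 435 CPM. In E11 ventral wIAHCs it was at 0 in 5 of 17 (median 64.2, highest 327), and in E11 dorsal wIAHCs at 0 in 1 of 12 (median 151, highest 394). The groups overlapped, with dorsal medians above ventral ones at both stages. *Ikzf2* was at 0 in 3 of 21 E10 ventral wIAHCs (median 210 CPM, highest 391) and went from 244 through 295 to 435 CPM in the E10 dorsal ones. In E11 ventral wIAHCs it was at 0 in 3 of 17 (median 163, highest 611), and in E11 dorsal ones at 0 in 4 of 12 (median 154, highest 586). All 7 E10 dorsal wIAHCs held both genes, and the range of *Ikzf2* was widest at E11.

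**Figure D5:**
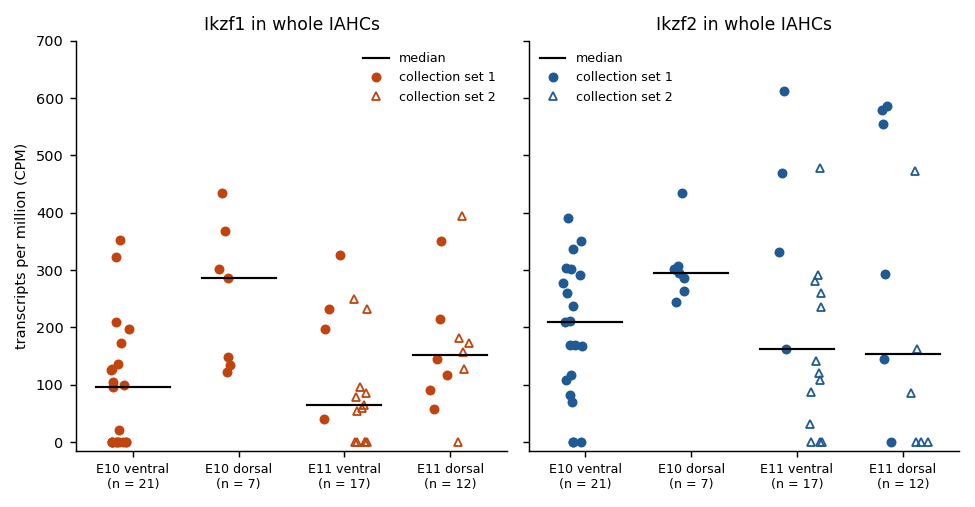
CPM of *Ikzf1* (left) and *Ikzf2* (right) in the 57 wIAHCs with at least 5000 transcripts, by stage and side, with the median as a bar; filled circles are the first set (all E10 wIAHCs among them) and open triangles the second E11 set. E10 dorsal wIAHCs hold both genes in 7 of 7, and E11 set 2 has the lower *Ikzf2* medians, with overlapping ranges.

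Whether stage or side changed the members was tested with edgeR's quasi-likelihood test with Benjamini-Hochberg adjustment over 13627 genes, in which neither gene passed at an adjusted p of 0.05. From E10 to E11, the log2 change of *Ikzf1* was 0.14 ventrally (SE 0.36, interval -0.57 to 0.86, adjusted p = 0.905) and -0.24 dorsally (SE 0.53, -1.29 to 0.81, adjusted p = 1), and that of *Ikzf2* was 0.26 (SE 0.30, -0.32 to 0.84, adjusted p = 0.689) and 0.16 (SE 0.45, -0.74 to 1.05, adjusted p = 1). In these contrasts 2.89% and 0.646% of all genes were called. Over the settings tried, the *Ikzf2* change went from -0.23 (without E11 set 1) to 1.03 (with set in the fit) ventrally and from -1.06 (without E11 set 1) to 0.57 dorsally, so neither direction is fixed. That of *Ikzf1* went from -0.29 to 0.72 ventrally and from -0.81 to -0.014 dorsally. Ventral against dorsal, *Ikzf1* had a log2 change of -0.89 at E10 (SE 0.43, -1.73 to -0.04, unadjusted p = 0.040, edgeR adjusted p = 0.776) and -0.51 at E11 (SE 0.48, -1.46 to 0.45, adjusted p = 0.857), with 0.11% of genes called at E10 and 0% at E11. For *Ikzf2* these were -0.39 (SE 0.38, -1.15 to 0.36, adjusted p = 0.888) and -0.29 (SE 0.39, -1.05 to 0.47, adjusted p = 0.857). Across settings the E11 side change went from -1 to 0.187 for *Ikzf1* and from -0.318 to 0.459 for *Ikzf2*, so its direction is not fixed. At E10 it stayed below 0 for both (-0.991 to -0.674 and -0.412 to -0.232). At E11, 960 genes had an unadjusted edgeR p under 0.05 for side. DESeq2 called 0 as well, whereas several other settings called some genes, as given under the processing below. For the interaction of stage and side, where 0.00734% of genes were called, the values were 0.38 for *Ikzf1* (-0.89 to 1.65) and 0.11 for *Ikzf2* (-0.96 to 1.18). Across settings they went from -0.152 to 1.01 and from -0.0621 to 0.821. The intervals of all these contrasts are wide, and a missed threshold does not show that the groups were alike.

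E11 wIAHCs came in 2 sets by their column names, between which *Ikzf2* had different medians and missed the threshold. In ventral wIAHCs it went from 163 through 400 to 611 CPM in the 4 of set 1 and from 0 through 120 to 477 in the 13 of set 2, and in dorsal ones from 0 through 424 to 586 in 6 and from 0 through 42.9 to 473 in 6. The medians of set 1 were the higher on both sides, and the ranges overlapped. With side in the fit, the log2 change of set 2 against set 1 was -1.29 for *Ikzf2* (SE 0.39, -2.05 to -0.52, unadjusted p = 0.00113, edgeR adjusted p = 0.130) and -0.63 for *Ikzf1* (SE 0.47, -1.57 to 0.30, adjusted p = 0.689), and 0.514% of genes were called. With set as a term, *Ikzf2* in ventral wIAHCs had a log2 change of 1.03 from E10 to E11 (0.29 to 1.77, adjusted p = 0.207), on the level of set 1. All 7 erythroid markers were detected in set 2 and 5 of 7 in set 1, with a summed level of 0.192% to 27.1% of transcripts against 0.0073% to 0.174%, and the 10 haematopoietic markers had a median of 0.197% against 0.303%. All 4 wIAHCs with over 5% haemoglobin transcripts were in set 2, with *Ikzf2* at 32.0 CPM in the deepest and at 0 in the others. The part of the marker levels and of these wIAHCs in the *Ikzf2* values was not tested.

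Of the same gene lists in wIAHCs, 3 genes were called, all between E10 and E11 ventral wIAHCs, where 2.89% of all genes were called. *Chd3* was among the 24 partner genes and rose (log2 change 2.05, SE 0.48, adjusted p = 0.00268), and of 12 lymphoid genes *Ptcra*, the pre-T cell receptor chain, rose (1.82, SE 0.55, adjusted p = 0.0393) and *Cd79b*, a chain of the B cell receptor, fell (-2.09, SE 0.58, adjusted p = 0.0201). Their medians were 0.11 and 0.52 against 0.03 over all genes. Between the same ventral groups, the summed level of 7 erythroid markers had a median of 0.0152% of transcripts at E10 (highest 0.0495%; 4 of 7 detected) and 0.303% at E11 (highest 23.6%; 7 of 7), and that of 6 mesenchyme markers of 0% and 0.0193%. Their part in these calls was not tested.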

How the data were processed

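CEL-Seq values were used as deposited, for 1121 sorted cells of 13 populations and 109 wIAHCs. The authors deposited estimated counts of transcripts from UMIs, for single cells down-sampled and raised by 0.1 (taken off here), for wIAHCs corrected for UMI collisions and not scaled. The submitters' processing notes name BWA 0.6.2-r126 and mm10, and the Methods name RaceID2. Down-sampling leaves no depth of the original cells. How reads shared between genes were counted is not given in the sources used here.

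Sums per population have exact Poisson intervals, shares Clopper-Pearson and ratios conditional binomial intervals, at 95%. A count of 0 was given a limit of 3 counts. Ratios over many genes needed 10 transcripts over both populations and a 2-fold difference, with 0.5 added. wIAHC values were rounded and tested with edgeR 4.0.16 in R 4.3.3 on all 4 groups, each wIAHC as a replicate, since embryos of origin are not given, so p-values measure the spread between picked clusters. The intended low-count filter kept 260 genes and neither member, so all 13627 genes with a transcript were tested, with scaling factors from the 260. Spike-ins (90 rows, 3.32% of transcripts) were left out. DESeq2 1.42.0 was the second tool. Tested on simulated data for E11 against E10 ventral wIAHCs, the edgeR step recovered 14% of changes of 1 and 73% of changes of 2 on the log2 scale. Named genes were both members, the other family genes, the 5 nearest in pattern to each member, and genes of the partner and lymphoid lists past 2-fold from HE to EHT cells at both stages or called in wIAHCs. Other list genes past 2-fold, and *Chd4*, were named after their values were seen. Other tools were Python 3.11.15, scipy 1.17.1, numpy 2.4.6, pandas 2.3.3 and, for plots, matplotlib 3.10.9. The members and lists were chosen with earlier results of these data known.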

Additional observations from a re-analysis of the deposited data

Results flagged for a closer look

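*Ikzf2* in E10 dorsal wIAHCs had a sample apart from the rest. Of the 7 wIAHCs, 6 lay between 244 and 306 CPM and 1 at 435 CPM, a gap of 0.672 of the whole range against a critical value of 0.568 (Dixon's test). That library rests on 4 transcripts of 9276 and was also the highest for *Ikzf1*, whose gap was 0.210. Of 2 such tests, chance flags about 1 in 20.

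The 52 wIAHCs with under 5000 transcripts were left out of the comparisons above, and *Ikzf2* was found in them too. They held 29.1 *Ikzf2* transcripts (corrected for UMI collisions) in 19 of the 52 libraries, or 290 CPM over all of them (194 to 416), against 261 CPM in the 57 deeper ones (234 to 290). *Ikzf1* gave 2.00 transcripts in 2 of the 52, or 19.97 CPM (2.43 to 72.1), against 134 CPM in the deeper ones (115 to 155). The difference between shallow and deep libraries was not tested.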

How the results depend on the processing

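Single-cell levels and ratios were recomputed with E11 cells thinned, and without cells carrying 4 macrophage markers (2 E11 EHT cells and 1 E10 HE cell). They were also recomputed in purified IAHC cells (54 at E10, 140 and 47 at E11) and without each set. Sets of the same number in both pre-HSC types were also left out together, added after seeing the data. Stages were also compared with all E11 transcripts divided by depth (likewise added). Of the population ratios, 166 stayed within their counting intervals. The 6 others were all for *Ikzf2*: the log2 ratio of E10 EHT to HE cells became 1.85 without E10 HE set 2 (0.852, under 2-fold, without HE set 1), that of type I pre-HSCs to EHT cells -1.20 without type I set 2, that of type II to type I pre-HSCs -1.30 without type II set 2 and 0.817 without type I set 2, that of E10 YS HSPCs to IAHC cells -2.25 without YS set 2 (-0.251 without YS set 1), and that of E11 to E10 YS HSPCs 2.08 without E10 YS set 2 (0.0869 without set 1). Of the mean levels, 80 stayed within their intervals and 20 moved beyond them, mostly in single sets. Of the shares of cells with *Ikzf2* that also held *Ikzf1*, 11 stayed and 9 moved, with at least 2 transcripts of each gene required or, for E11 YS HSPCs, also after thinning. With *Pecam1* and *Coro1a* as class genes, the pre-HSC ratios became 1.61 for *Ikzf1* and 2.16 for *Ikzf2*. The cause was not tested.

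In wIAHCs, both members missed the threshold in the stage and side contrasts under every setting that tested them (the low-count filter left both out), with a lowest adjusted p of 0.207, and 12 log2 changes turned sign while 86 did not. With scaling factors from all genes (a setting added after seeing the data), *Ikzf1* from E10 to E11 ventrally became -0.0826, *Ikzf2* dorsally -0.433 and *Ikzf2* at E11 between sides 0.172. Without E11 set 1, *Ikzf1* became -0.287 from E10 to E11 ventrally and -0.152 for the interaction, and *Ikzf2* -0.234 ventrally, -1.06 dorsally and 0.459 between E11 sides. Between E11 sides, *Ikzf1* became 0.0258 with at least 10000 transcripts and 0.187 without set 2, and *Ikzf2* 0.126 with set in the fit, while the *Ikzf2* interaction became -0.0621 with at least 10000 transcripts.

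Counts of genes called moved as follows. From E10 to E11 ventrally, 394 became 86 with the low-count filter, 239 with a minimum count of 2 (added after seeing the data), 244 with DESeq2, 167 with set in the fit and 159 without set 2. Dorsally, 88 became 26 with the low-count filter, 37 with at least 10000 transcripts and 48 without set 1. Between E10 sides, 15 became 0 with the low-count filter and with DESeq2, 8 with factors from all genes, 26 with at least 10000 transcripts, 7 with set in the fit and 34 with only the 2 groups. Between E11 sides, 0 became 12 with factors from all genes, 15 with at least 10000 transcripts and with only the 2 groups, 5 without haemoglobin-rich wIAHCs and 4 without set 2. For the interaction, 1 became 0 with the low-count filter, a minimum count of 2, DESeq2, set in the fit or without set 1, 21 with factors from all genes, 25 with at least 10000 transcripts, 5 without haemoglobin-rich wIAHCs and 3 without set 2. The filters test fewer genes and the subsets hold fewer libraries. Otherwise the cause was not tested.

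The set numbers that E11 ventral and dorsal wIAHCs share entered the fit as a term, and the pre-HSC types were also compared within their shared set numbers. Depth limits the members as well: a transcript or fewer per cell in most populations and a median of 12838 transcripts per wIAHC leave wide intervals.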
